A study of Mus musculus with 4 samples.

Results

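Basophils were described in droplet-based single-cell RNA sequencing of dissociated mouse lung tumors, where they made up 124 of 19892 cells that passed the cell filter, or 0.623% (95% interval 0.519 to 0.743, exact binomial). A cell was counted as a basophil from its own unique molecular identifiers (UMIs, each standing for a captured transcript): at least 3 UMIs summed over Mcpt8, Cpa3, Ms4a2 and Cyp11a1, at least 1 of them from Mcpt8, none from the CD3 genes Cd3d, Cd3e and Cd3g, and at most 2 from the complement genes C1qa, C1qb and C1qc. The members were thus selected on measured UMIs of these genes, and the levels of the rule genes are given as a description only. All values came from 1 pooled matrix in which cells were not assigned to mice here, so no spread between mice and no comparison between genotypes was available, and every interval below is at 95% and covers counting error only. The basophils held 222360 UMIs together; the lowest member had 754, the median member 1559 and the highest 9413, against a median of 2004 in all other cells.

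The tumors came from 4 female mice whose lungs were infected with Lenti-Cre and whose tumors grew for 16 weeks. All carried Lkb1XTR/XTR, in which Cre traps the Lkb1 gene. The 2 Non-Restored mice were Rosa26LSL-tdTomato, in which Cre switches on tdTomato. The 2 Restored mice were Rosa26LSL-tdTomato/FLPo-ERT2, so that they also carried a tamoxifen-dependent FLPo recombinase that reverses the trap. Per the labels, both groups received tamoxifen in doses of 4 mg over 2 weeks, and viable cells from microdissected tumors were sequenced, stromal and immune cells included. Cre acts in the cells that the virus reached, and the basophils were sorted with all other viable cells of the tumors.

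Basophils are rare granulocytes that leave the bone marrow mature. They carry the high-affinity IgE receptor, release histamine from granules when that receptor is cross-linked, and are known as early producers of IL-4 and IL-13. In lung tissue basophils are known to respond to IL-33 and GM-CSF and to express cytokines and growth factors that act on neighbouring macrophages. Mast cells share the IgE receptor, carboxypeptidase A3 and histamine with them but mature in tissues, depend on the receptor Kit and store tryptases and chymases.

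Basophil genes that the rule did not use were far above the other cells of the tumors. Levels are given as CPM, the UMIs of a gene for every 1000000 UMIs of the pooled cells, and 1 UMI in the basophils equals 4.50 CPM. A gene was called higher where its level was at least 4 times that of the other cells with an interval above 1, and lower at 0.25 times or less with an interval below 1. Of 16110 genes with at least 10 UMIs over both sides, 376 were called higher, a background of 2.33%, and 1178 were called lower, a background of 7.31%. A gene with few UMIs elsewhere could reach this minimum through its basophil UMIs alone, which favours a call of higher. Of 20 basophil genes outside the rule, 19 could be compared, and 15 of them were called higher and 0 lower. The list was chosen with earlier results of these data known, so its values describe the members and are no independent check. Summed, these genes reached 30599 CPM in basophils and 2475 CPM in other cells, 12.4-fold (12.1 to 12.7). Their median log2 ratio was 3.36, against -0.23 over all genes compared. Neutrophils, the other granulocytes of the tissue, had the highest sum of the 11 other marker-defined classes, at 8794 CPM.

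The rule genes themselves describe how marked the members were. Mcpt8, a granule serine protease of basophils, was at 4232 CPM in basophils and 0.64 CPM in other cells, with a median of 3 UMIs per member. Cpa3, carboxypeptidase A3, was at 1299.7 CPM against 1.35 CPM. Ms4a2, the signal-amplifying chain of the IgE receptor, was at 863 CPM against 1.07 CPM. Cyp11a1, the enzyme that makes pregnenolone from cholesterol in steroid-producing tissues, was at 1273 CPM against 1.75 CPM and was found in 109 of 124 members. Basophils held 96.2% of all Mcpt8 UMIs, 78.7% of those of Cpa3, 75.6% of those of Ms4a2 and 73.7% of those of Cyp11a1.

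**Figure D1:**
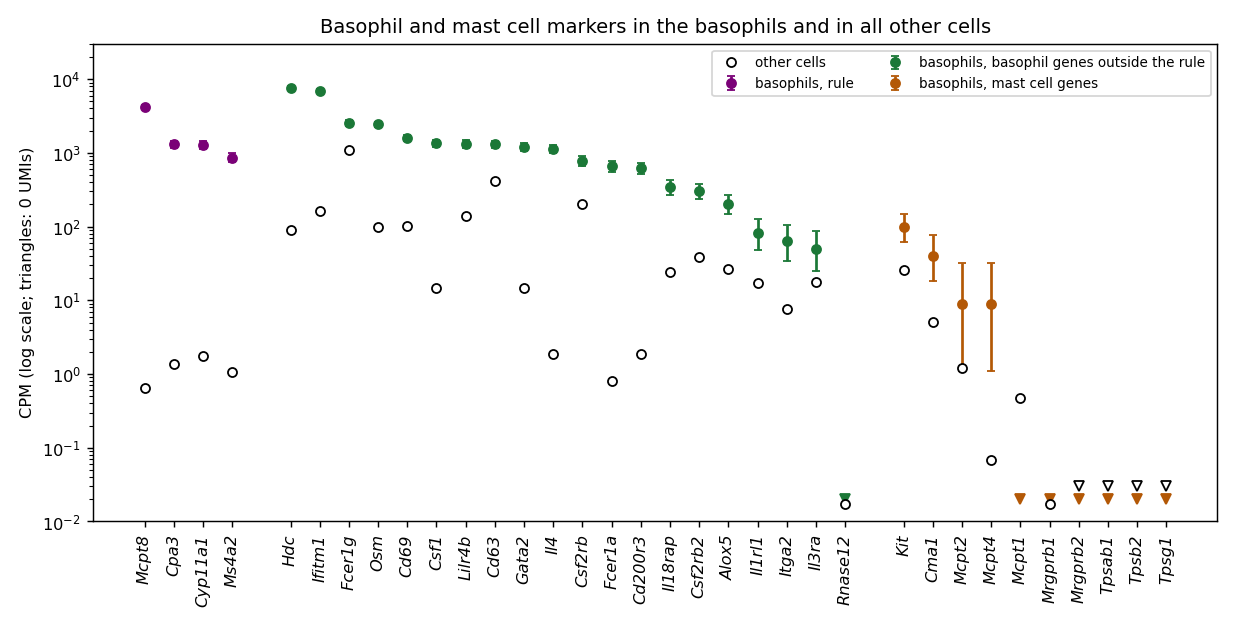
Levels in CPM (log axis) of the rule genes, of basophil genes outside the rule and of mast cell genes, in basophils (filled, with exact Poisson intervals) and in the other cells (open), with triangles for 0 UMIs. Hdc stands at 7649.8 CPM in the basophils and 89.9 CPM in the other cells. The tryptase gene Tpsb2 had 0 UMIs in the basophils and in all other cells, so it cannot tell basophils from mast cells here.

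Sequence upstream of these genes is shown because IgE receptor and Cpa3 genes are known targets of GATA factors, and the Gata2 transcript was high in these cells. GATA factors bind the core GATAA, read as TTATC on the opposite strand. In the 250 bases before the start, 9 of 21 matched rule and basophil genes held this core (42.9%: Alox5, Cd200r3, Cpa3, Csf2rb2, Fcer1a, Il18rap, Il1rl1, Lilr4b and Ms4a2). Per gene, the share was 27.3% over 264 genes called higher in basophils and 18.2% over 11837 genes compared. Per start site, it was 40% for the rule and basophil genes, 21.7% for genes called higher and 15.5% for genes compared. Over all 32851 start sites in the annotation it was 22.6%, so the genes called higher did not exceed that share. The 120 bases before the start of 9 genes are printed below, 4 of them without the core in that window, from RefSeq (GRCm38.p6, the build of the files), 5′ to 3′ on the gene's own strand, with each GATAA or TTATC in capitals:
Ms4a2: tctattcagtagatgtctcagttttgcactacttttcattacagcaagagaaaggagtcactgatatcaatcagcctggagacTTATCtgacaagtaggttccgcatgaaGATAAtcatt
Cpa3: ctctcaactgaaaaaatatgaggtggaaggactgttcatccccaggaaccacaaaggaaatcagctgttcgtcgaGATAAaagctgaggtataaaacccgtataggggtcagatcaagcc
Fcer1a: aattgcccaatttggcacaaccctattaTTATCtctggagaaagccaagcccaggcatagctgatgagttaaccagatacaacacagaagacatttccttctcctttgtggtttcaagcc
Il13: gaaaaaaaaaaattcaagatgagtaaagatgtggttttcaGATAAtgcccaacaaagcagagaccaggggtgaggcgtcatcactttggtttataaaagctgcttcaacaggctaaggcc
Prss34: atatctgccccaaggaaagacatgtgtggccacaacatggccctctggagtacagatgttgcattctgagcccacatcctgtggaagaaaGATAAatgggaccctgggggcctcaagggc
Mcpt8: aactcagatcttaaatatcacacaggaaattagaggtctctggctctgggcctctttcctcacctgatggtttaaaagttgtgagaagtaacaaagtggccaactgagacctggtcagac
Il4, inner start: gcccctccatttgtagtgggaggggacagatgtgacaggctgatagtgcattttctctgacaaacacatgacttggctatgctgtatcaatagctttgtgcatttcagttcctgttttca
Il4, outer start: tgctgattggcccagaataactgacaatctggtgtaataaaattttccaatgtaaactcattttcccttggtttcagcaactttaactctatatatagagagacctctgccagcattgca
Hdc: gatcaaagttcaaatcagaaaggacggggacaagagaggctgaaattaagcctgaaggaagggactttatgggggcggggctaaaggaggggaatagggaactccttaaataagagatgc
Ccl3: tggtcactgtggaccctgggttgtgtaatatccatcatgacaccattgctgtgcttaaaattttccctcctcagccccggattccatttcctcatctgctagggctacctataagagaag
These windows lie at chr19:11623720-11623839 for Ms4a2, chr3:20242182-20242301 for Cpa3, chr1:173227230-173227349 for Fcer1a, chr11:53634703-53634822 for Il13 and chr14:56085198-56085317 for Mcpt8, all on the minus strand. Also on the minus strand are chr11:53617339-53617458 and chr11:53618666-53618785 for Il4, chr2:126618679-126618798 for Hdc and chr11:83649379-83649498 for Ccl3, and Prss34 lies at chr17:25298274-25298393 on the plus strand. Ms4a2 held the core at positions -37 and -10 in the stretch shown and again at -224, Cpa3 at -45, Fcer1a at -92, Il13 at -80 and Prss34 at -30, counted back from the start. Il13, Prss34 and Ccl3 are not among the 21 genes counted above. The windows of Mcpt8, Il4, Hdc and Ccl3 held no such letters, and a match or its absence in this window says nothing on whether a factor was bound.

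Mast cell genes were found in 4 of 124 members, where they raised the pooled level above that of other cells. The 10 mast cell genes had 35 UMIs, 157 CPM (110 to 219) against 32.6 CPM in other cells, 4.83-fold (3.35 to 6.74), and of 4 that could be compared Cma1 was called higher. Tpsb2, Tpsab1 and Tpsg1, the tryptases, and Mrgprb2, the mast cell receptor for basic secretagogues, had 0 UMIs in the basophils, which allows up to 13.5 CPM each, and 0 in all other cells as well. Kit, the stem cell factor receptor on which mast cells depend, had 22 UMIs in 4 members. Of the mast cell proteases, Cma1 had 9 UMIs, Mcpt2 and Mcpt4 had 2 UMIs each and Mcpt1 had 0, and all of these came from the same member. That member, of 1920 UMIs, held 17 of the 35 mast cell UMIs, and the rule kept it. It had 4 of Kit, 9 of Cma1, 2 of Mcpt2 and 2 of Mcpt4 beside 6 of Mcpt8. The 4 members had 4 to 8 Kit UMIs, 4 to 17 of Mcpt8 and 0 to 2 of Ccl3, against a median of 34 Ccl3 UMIs over all members. Without them, a choice made after the values were seen, Il4 was at 1179 CPM, Hdc at 8039.8 CPM and Ccl4 at 50284 CPM. The Mcpt genes are close relatives, and reads can be shared between copies.

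Markers of other lineages were at low levels, some in a few members and some spread over many. The 7 eosinophil genes had 6 UMIs, 4 of Ccr3 and 2 of Siglecf, with the granule genes Epx and Prg2 at 0. The 5 stromal genes had 0 UMIs and the 7 T cell genes 2. MHC class II and costimulation genes had 596 UMIs, of which 502 were in 1 member and 549 in the 7 members with at least 2 UMIs of a B cell, endothelial, epithelial, T cell or NK marker, while 95 members had none. Neutrophil genes had 318 UMIs, of which 226 were in 1 member, and 115 members had none. Epithelial and surfactant genes had 86 UMIs spread over 49 members, 387 CPM against 114737.6 CPM in epithelial cells. Macrophage genes had 52 UMIs in 23 members, NK and ILC genes 41 in 27, endothelial genes 38 in 25 and B cell genes 37 in 14. The part of these markers in the values below was not tested. Without those 7 members the basophil genes outside the rule were 13.02-fold above other cells.

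Of 114 cytokines and growth factors, 86 could be compared, and 10 were called higher (11.6%, against the background of 2.33%) and 13 lower (15.1%, against 7.31%). The called-higher genes fell by their UMIs into an abundant group of Osm, Il6, Csf1, Il4 and Il13, a middle one of Hgf, and Il23a, Angpt1, Il15 and Lif with 5 to 14 UMIs each. Summed over the list, basophils reached 11252 CPM against 3744 CPM, 3.01-fold (2.89 to 3.13). Neutrophils had the highest sum of the other classes, at 13222 CPM.

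Il4, the type 2 cytokine that drives IgE switching and T helper 2 differentiation, had 251 UMIs in 48 members. The lowest and the median member had 0 UMIs and the highest had 35. A total of 18 members had exactly 1 UMI, 16 had at least 5, and the 10 highest held 65.7% of its UMIs, so the transcript was unevenly spread. The level was 1129 CPM against 1.88 CPM in other cells, 599-fold (476 to 757). T cells came next among the classes at 5.28 CPM. Basophils, 0.383% of the UMIs of the series, held 69.7% of all its Il4 UMIs.

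Il13, the type 2 cytokine of mucus production and airway hyperreactivity, was found in more members than Il4. It had 229 UMIs in 64 members, with a lowest value of 0, a median of 1 and a highest of 13 UMIs, and the 10 highest members held 42.8%. The level was 1029.9 CPM against 3.27 CPM, 315-fold (259 to 384), and basophils held 54.8% of the Il13 UMIs of the series. Il5, the eosinophil growth factor encoded in the same cytokine locus, had 0 UMIs, and so had Il3, Il9 and Csf2.

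Il6, an acute-phase and B cell cytokine, was found in most members. It had 457 UMIs in 101 members, with a lowest value of 0, a median of 3 and a highest of 20, and stood at 2055 CPM against 12.8 CPM, 160-fold (142 to 180). Stromal cells, a usual tissue source of IL-6, were the next class at 93.9 CPM. Osm, oncostatin M of the same cytokine family, was found in 106 members with a median of 4 and a highest of 14 UMIs. Its level of 2428 CPM was 24.5-fold (22.4 to 26.8) that of other cells, and neutrophils followed at 369 CPM.

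The growth factors of the group act on macrophages and epithelium. Csf1, the macrophage colony-stimulating factor, was found in 79 members with a median of 1 and a highest of 21 UMIs, at 1354 CPM against 14.5 CPM, 93.5-fold (81.7 to 107). Hgf, hepatocyte growth factor, had 52 UMIs in 40 members and no more than 3 in any, at 234 CPM against 5.88 CPM, 39.8-fold (29.1 to 53.4). Angpt1, a ligand of the endothelial receptor Tie2, had 13 UMIs in 7 members, 39.3-fold (20.1 to 70.8). All 14 UMIs of Il23a, a subunit of IL-23, came from 2 members.

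Other cytokines linked with allergic or tumor tissue were low or did not reach the call. Tnf was at 283 CPM against 80.2 CPM, 3.53-fold (2.71 to 4.53), with 63 UMIs in 27 members. Areg, the EGF receptor ligand amphiregulin, was called lower, with 4 UMIs, 18.0 CPM against 97.1 CPM. Vegfa had 3 UMIs, 13.5 CPM against 39.5 CPM, and Tslp had 1 UMI. These few UMIs limit what can be said of cells that carry such transcripts at low levels.

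**Figure D2:**
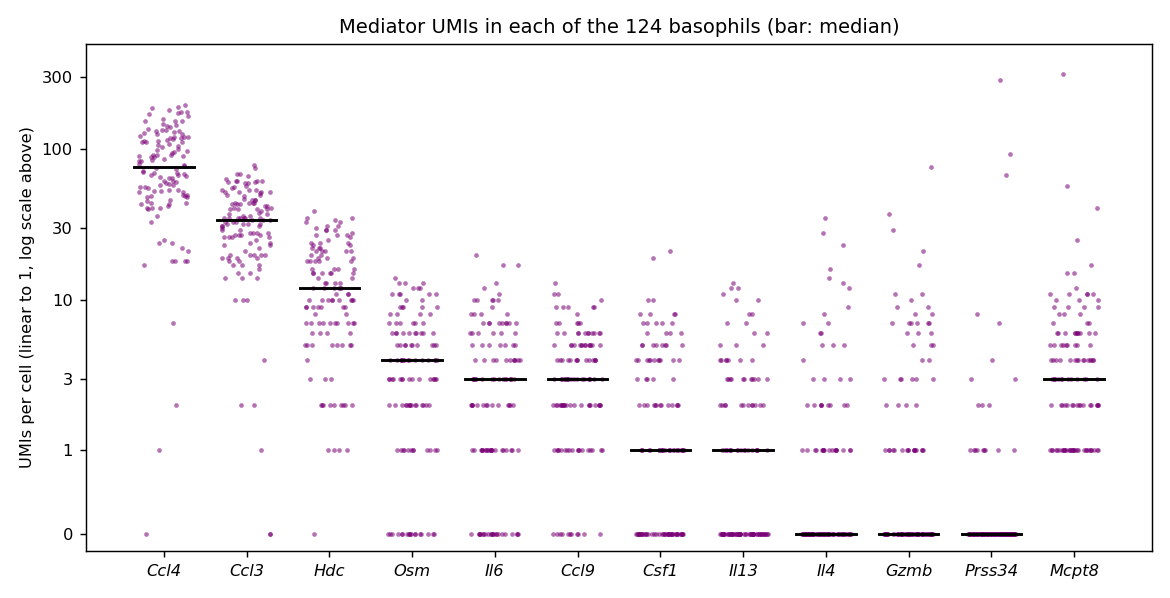
UMIs per cell (linear to 1, log above) of 12 cytokine, chemokine, enzyme and protease genes in the 124 basophils, with each point a cell and the median as a bar. Ccl4 and Ccl3 were present in nearly every member with medians of 76 and 34 UMIs, while Il4 had a median of 0 and reached 35.

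At the equal depth of 1000 UMIs per cell, which 120 members reached, cytokine detection in basophils stood well apart from that in B cells and T cells. An Il4 UMI was found in 30.8% of the thinned basophils (22.7 to 39.9), in 0 of 870 thinned B cells, which allows up to 0.345%, and in 0.634% of 946 thinned T cells. For Il13 the shares were 43.3% in basophils, 0.115% in B cells and 0.317% in T cells, and for Il6 they were 74.2%, 0.115% and 0.106%. The median depths before thinning were 1559 UMIs in basophils and 1428 in B cells. Before thinning, 38.7% of the members had an Il4 UMI, 51.6% an Il13 UMI and 81.5% an Il6 UMI.

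The 3 cytokines were found in all combinations of number. None of Il4, Il13 and Il6 was found in 8 members, 1 of them in 43, 2 in 49 and all 3 in 24, and after thinning the numbers were 14, 48, 44 and 14 of 120. Among thinned members with Il4, 51.4% (34.4 to 68.1) also had Il13, and among those without Il4 the share was 39.8% (29.2 to 51.1), so the intervals overlapped. For Il6 these shares were 73.0% and 74.7%. The member with the most Il4 had 35 of its 1707 UMIs from that gene, with 0 from Il13 and 4 from Il6.

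Ccl3 and Ccl4, chemokines that attract T cells, NK cells and monocytes, took a large part of the transcripts of the members. Ccl4 had more UMIs in basophils than any other feature, 10475, and Ccl3 ranked 4 with 4318. Together they made up 6.65% of all basophil UMIs, and in a member they made up from 0% to 14.9% of its UMIs with a median of 7.41%. Both were found in 122 members and neither in 1, and Ccl4 had more UMIs than Ccl3 in 116, counts that are not scaled by transcript length.

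Ccl4 was at 47108 CPM against 422 CPM in other cells, 112-fold (109 to 114), with 0 UMIs in the lowest member, 76 in the median one and 197 in the highest. NK cells, a known source, were the next class at 1704 CPM. Ccl3 was at 19419 CPM against 280 CPM, 69.3-fold (67.0 to 71.7), with a lowest value of 0, a median of 34 and a highest of 79 UMIs, and alveolar macrophages followed at 714 CPM. At 1000 UMIs per cell Ccl4 was found in 98.3% of basophils and in 1.38% of B cells, and in 31.5% of C1q-high macrophages.

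Of 46 chemokines, 34 could be compared, 3 were called higher (8.82%, against 2.33% of all genes) and 13 lower (38.2%, against 7.31%). The list's high sum of 72913 CPM against 6580 CPM thus rested on few genes. The third called gene was Ccl9, a ligand of CCR1, at 1997 CPM against 113 CPM, 17.7-fold (16.0 to 19.5), found in 113 members. Its neighbour Ccl6 did not reach the call at 3121 CPM against 1203 CPM, 2.59-fold (2.40 to 2.79), and was higher in alveolar macrophages at 5231 CPM. The monocyte attractants Ccl2, Ccl7, Ccl8 and Ccl12 and the T cell attractant Ccl5 had 0 UMIs in the members.

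**Figure D3:**
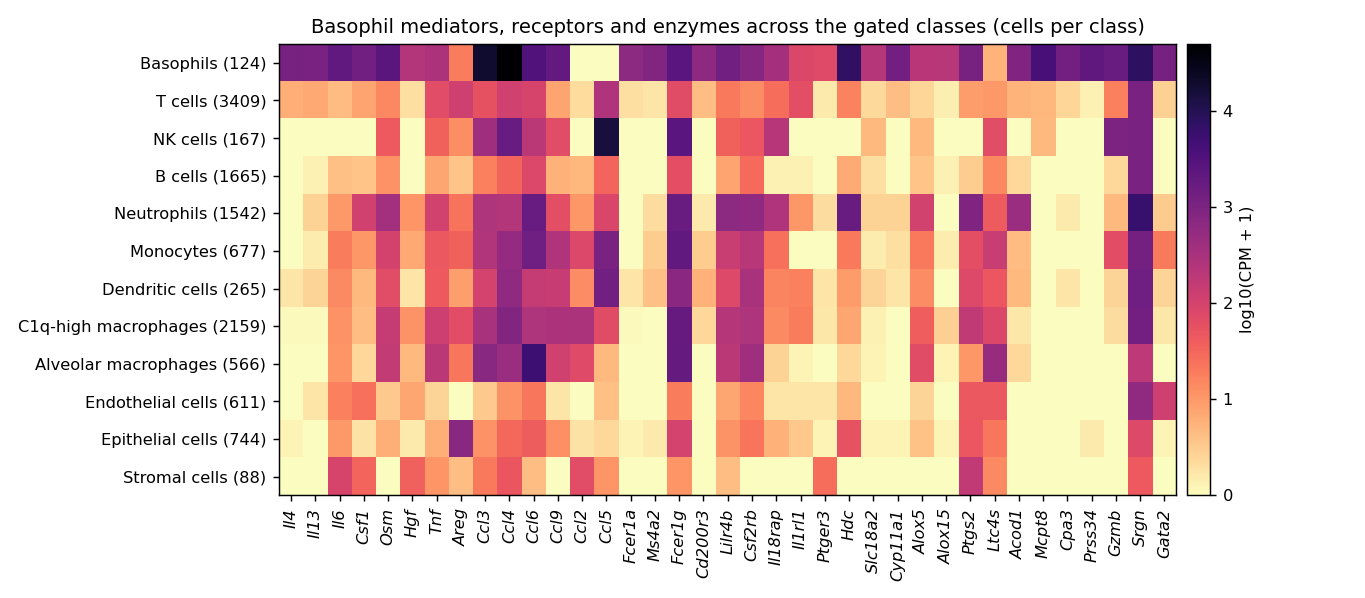
Levels, as log10 of CPM + 1 in color, of cytokine, chemokine, receptor, enzyme and granule genes (columns) in basophils and the 11 marker-defined classes (rows, with their cell numbers). The basophils have the highest level of Ccl4 at 47108 CPM, followed by NK cells at 1704 CPM, and of Hdc at 7649.8 CPM, followed by neutrophils at 1637 CPM.

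The genes of the IgE receptor showed a specific and a shared part. Fcer1a, the chain that binds IgE, was at 661 CPM against 0.81 CPM, 813-fold (582 to 1155), with 147 UMIs in 71 members, and basophils held 75.8% of its UMIs in the series. The signalling chain gene Fcer1g, which other Fc receptors use too, was at 2545 CPM against 1091 CPM, 2.33-fold (2.14 to 2.53), and NK cells were close at 2509 CPM. Of 30 genes of IgE receptor signalling 4 were called higher (13.3%, against 2.33% of all genes) and 2 lower (6.67%, against 7.31%). Among the called-higher genes were Lat2, an adaptor at 333 CPM against 41.9 CPM, Stx3, a syntaxin of granule fusion at 171 CPM against 33.2 CPM, and Unc13d, which primes granules for release, at 72.0 CPM against 9.23 CPM. The proximal kinase genes Lyn, at 45.0 CPM against 170 CPM, and Syk, at 94.4 CPM against 123 CPM, were not called in either direction.

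Among 37 Fc, lectin and inhibitory receptors, 4 were called higher (10.8%, against 2.33% of all genes) and 9 lower (24.3%, against 7.31%). Besides Fcer1a these were Cd200r3, an activating relative of the CD200 receptor known on basophils and mast cells, at 621 CPM against 1.85 CPM, 335-fold (259 to 436). Lilr4b was found in 108 members at 1327 CPM against 140 CPM, 9.49-fold (8.42 to 10.7), and shares sequence with its close relative Lilrb4a, so the split between them is uncertain. Cd244, a SLAM-family receptor, was at 135 CPM against 27.9 CPM and slightly higher in neutrophils at 160 CPM.

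Few cytokine receptors stood out. Of 89, 79 could be compared and 3 were called higher (3.80%, against 2.33% of all genes) and 16 lower (20.3%, against 7.31%). Their summed level was 3040 CPM against 3150 CPM. Il18rap, the signalling partner of the IL-18 receptor, was at 342 CPM against 24.3 CPM, 14.1-fold (11.01 to 17.7), in 54 members. Il1rl1, the IL-33 receptor ST2, was at 80.9 CPM against 17.3 CPM, 4.68-fold (2.76 to 7.43), with 18 UMIs in 12 members. Csf2rb2, the IL-3-specific beta chain, was at 301 CPM against 38.3 CPM, 7.87-fold (6.07 to 10.0), while Csf2rb, the common beta chain, stopped short of the call at 778 CPM against 202 CPM, 3.84-fold (3.29 to 4.47). The 2 beta chain genes are near-identical copies, and their split is uncertain. Il3ra, the IL-3 binding chain of a main basophil growth factor receptor, had 11 UMIs and was at 49.5 CPM against 17.5 CPM, 2.82-fold (1.41 to 5.07). Csf2ra, the GM-CSF binding chain, was among the 16 receptors called lower.

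Chemokine receptors were sparse, with 160 UMIs over 23 genes. Of these genes, 1 was called higher (4.35%, against 2.33% of all genes) and 3 lower (13.04%, against 7.31%). The called gene was Ccr3, the eotaxin receptor, with 4 UMIs in 4 members, 18.0 CPM against 0.52 CPM. Of 38 genes listed as receptors for lipid mediators, purines and complement, among them the channel gene Aqp9, 34 could be compared. Of these, 6 were called higher (17.6%, against 2.33% of all genes) and 7 lower (20.6%, against 7.31%). Aqp9, an aquaglyceroporin, was at 162 CPM against 2.58 CPM, Adora2b, an adenosine receptor, at 94.4 CPM against 6.35 CPM, and Ptger3, a prostaglandin E2 receptor, at 72.0 CPM against 0.66 CPM. P2rx1, P2ry1 and Ptgir, receptors for ATP, ADP and prostacyclin, rested on 5 or 6 UMIs each. C5ar1, the C5a receptor, was at 175 CPM against 54.6 CPM, 3.21-fold (2.28 to 4.40), without a call.

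Hdc had the highest number of UMIs of the enzymes listed and was found in nearly all members. Hdc, histidine decarboxylase, was found in 123 members, with a lowest value of 0, a median of 12 and a highest of 39 UMIs. Its level was 7649.8 CPM against 89.9 CPM, 85.1-fold (80.6 to 89.9), and neutrophils, the next class, were at 1637 CPM. At 1000 UMIs per cell it was found in 95.8% of basophils, 65.8% of neutrophils and 0.230% of B cells. Slc18a2, the vesicular monoamine transporter that loads histamine into granules, was at 229 CPM against 1.04 CPM, 221-fold (149 to 327). NK cells were next at 3.93 CPM, but that class held 254692 UMIs in all, so this place rests on hardly any UMIs of the gene.

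Of 37 enzymes of lipid mediators, histamine and related pathways, 32 could be compared. Of these, 7 were called higher (21.9%, against 2.33% of all genes) and 7 lower (21.9%, against 7.31%). Without the rule gene Cyp11a1, 6 of 31 were called higher (19.4%). Ptgs2, the inducible cyclooxygenase, was at 1119.8 CPM against 99.0 CPM, 11.3-fold (9.92 to 12.8), in 61 members, and was close to the 915 CPM of neutrophils. Alox15, a lipoxygenase of resolving mediators, was at 211 CPM against 1.04 CPM, 204-fold (136 to 303), and Alox5, which opens leukotriene synthesis, was at 202 CPM against 26.8 CPM, 7.54-fold (5.48 to 10.1). Alox5ap, the protein that presents substrate to ALOX5, was at 1758 CPM against 448 CPM, 3.92-fold (3.54 to 4.33), short of the call. Ltc4s, which makes the leukotriene C4 that basophils are known to release, had 1 UMI and was called lower, at 4.50 CPM against 148 CPM, and Hpgds, the prostaglandin D2 synthase of mast cells, also had 1 UMI.

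The remaining called enzymes were Padi4 and Padi2, which convert arginine to citrulline in proteins, at 117 CPM against 3.01 CPM and at 121 CPM against 7.26 CPM, and the rule gene Cyp11a1. Cyp11a1 appeared without its usual steroidogenic partners, as Star, which carries cholesterol into mitochondria, and Hsd3b1 and Hsd3b6 had 0 UMIs. Acod1, the enzyme of itaconate synthesis, was outside the lists and was at 940 CPM against 22.3 CPM, 42.1-fold (36.2 to 48.8), with neutrophils at 451 CPM. Arg1 had 0 UMIs in the members.

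Among 98 granule proteases and secretory proteins, 52 could be compared, and 13 were called higher (25%, against 2.33% of all genes) and 10 lower (19.2%, against 7.31%). Mcpt8 and Cpa3 are among the 13 by the rule, and without them 11 of 50 were called higher (22%). Among these is Prss34, which had 4 UMIs in other cells and could be compared only through its basophil UMIs. Srgn, the proteoglycan serglycin on which granule mediators are packed, was found in all 124 members at 8001 CPM against 1065 CPM, 7.51-fold (7.16 to 7.88), with neutrophils at 6107 CPM. Gzmb, the cytotoxic protease granzyme B, was at 1673 CPM against 21.1 CPM, 79.2-fold (70.3 to 89.0), but the 4 members with mast cell UMIs held 163 of its 372 UMIs. Without them Gzmb was at 1006 CPM (874 to 1152), 47.6-fold (40.9 to 55.2), next to the 1005 CPM of NK cells. Gzmb had 0 UMIs in the median member and 76 in the highest, 53 members had any, and the 10 highest held 61.8%. Gzmc had 59 UMIs in 11 members and is close in sequence to other granzymes, so its counts are uncertain. Serpinb1a, an inhibitor of neutrophil serine proteases, was at 553 CPM against 62.7 CPM, 8.83-fold (7.31 to 10.6).

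Prss34, the basophil tryptase-like protease mMCP-11, was found in a minority of the members. It had 487 UMIs in 20 members, 2190.1 CPM against 0.069 CPM, and basophils held 99.2% of its UMIs in the series. A member had 287 of the 487 UMIs. Without that member 200 UMIs in 19 members remained, 939 CPM, of which 93 and 67 were in 1 member each and 40 in the other 17. Ctsg, cathepsin G of primary granules, had 55 UMIs in 17 members, 247 CPM, of which the same member held 31, and Ctsg stood at 113 CPM without it.

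That member was the deepest of all, with 9413 UMIs and 2451 genes. It held 316 of the 941 Mcpt8 UMIs, and without it Mcpt8 stood at 2935 CPM, Cpa3 at 1216 CPM and Fcer1a at 540.04 CPM. It also held 184 UMIs of the histone gene Hist1h2ap, 15 of Mpo, myeloperoxidase of immature granulocytes, 7 of Top2a and 3 of Mki67, and 81 of the 228 UMIs that members had of 14 cell-cycle genes. No other member had as many as 2 of those genes outside Hmgb2 and Stmn1. The member had 32 Fcer1a UMIs and 20 Il6 UMIs, so the basophil genes were present, and 25 Ccl4 UMIs, below the median of 76 at a higher depth.

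Values of other genes in the members with and without Prss34 rested on few cells. This split was chosen after the values were seen and has no test. Leaving out the deepest member, Mcpt8 was at 7177 CPM in the 19 members with Prss34 and 2199 CPM in the 104 without, 3.26-fold (2.76 to 3.85), and Ctsg at 508 CPM and 44.1 CPM, 11.5-fold (4.65 to 31.1). Without the 3 members with most Prss34 these ratios were 2.15 (1.75 to 2.63) and 7.55 (2.59 to 22.5). Il4 lay the other way, at 413 CPM and 1312 CPM, a ratio of 0.315 (0.165 to 0.549), but 7 members held 141 of the 238 Il4 UMIs without Prss34. At 1000 UMIs per cell Il4 was found in 31.2% (11.02 to 58.7) of 16 members that kept a Prss34 UMI. It was found in 30.8% (22.1 to 40.6) of the 104 that had none after thinning. These 2 groups were set on the thinned UMIs with the deepest member kept, so they are not the 19 and 104 members above. Hdc at 1.03 (0.893 to 1.17) and Ccl4 at 0.932 (0.881 to 0.985) were near equal. Median depths were 1583 UMIs in the 19 members and 1555.5 in those without Prss34.

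Of 38 transcription factor genes, 5 were called higher (13.2%, against 2.33% of all genes) and 5 lower (13.2%, against 7.31%). Gata2, required for basophil and mast cell development, was found in 94 members with a highest value of 17 UMIs, at 1192 CPM against 14.6 CPM, 81.7-fold (70.9 to 93.9), and endothelial cells were next at 114 CPM. Gata1 had 9 UMIs, 260-fold (91.5 to 739), Tal1 had 10 and Myb 4, while Egr1, an early response factor, was at 2334 CPM against 580 CPM, 4.02-fold (3.68 to 4.39), just inside the call. Cebpa, whose product directs basophil fate, was at 139 CPM against 48.0 CPM, 2.91-fold (1.97 to 4.13), without a call. Gata3, the factor of type 2 lymphocytes, and Irf4 had 0 UMIs and were called lower.

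Of 22 integrin and adhesion genes, 5 were called higher (22.7%, against 2.33% of all genes) and 2 lower (9.09%, against 7.31%). Cd69, a membrane lectin of recently activated leukocytes, was at 1597 CPM against 102 CPM, 15.7-fold (14.1 to 17.5), in 92 members. Itga2b, integrin CD41 of platelets and of basophil and mast cell precursors, was at 175 CPM against 1.35 CPM, 130-fold (86.2 to 193), in 33 members, while the other 7 platelet and erythroid genes had 0 UMIs. Itga2, the CD49b used to sort mouse basophils, had 14 UMIs at 63.0 CPM against 7.70 CPM, Itgb3 had 9 UMIs and Spn was at 220 CPM against 53.0 CPM. Cd63, a granule membrane protein that reaches the surface on degranulation, was at 1309 CPM against 421 CPM, 3.11-fold (2.76 to 3.49), short of the call, and Rnase12 had 0 UMIs. Ifitm1, an interferon-induced membrane protein, was at 6971 CPM against 164 CPM, 42.4-fold (40.2 to 44.7), with neutrophils at 3004 CPM.

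**Figure D4:**
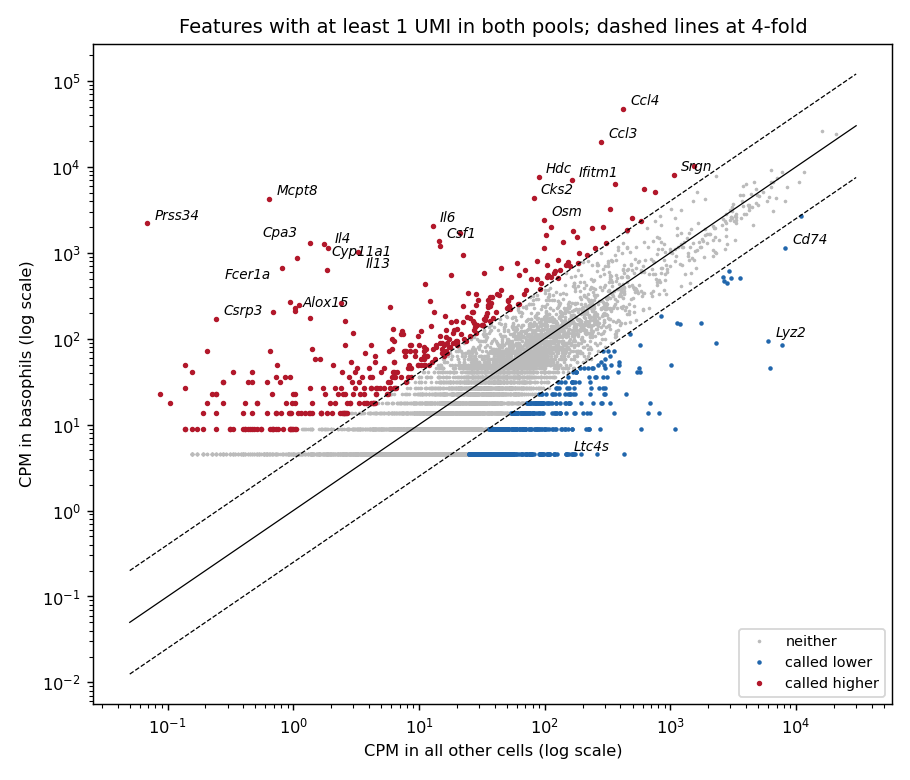
Level in the basophils against level in other cells for each gene compared, in CPM on log axes, for features with at least 1 UMI on both sides; the solid line marks equal levels and the dashed lines a ratio of 4. The red points are genes called higher (376 of 16110 compared) and the blue points genes called lower, and Ccl4 at 47108 CPM, Ccl3 at 19419 CPM and Hdc at 7649.8 CPM lie far above the upper line.

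Outside all lists, the 10 called genes with the largest log2 ratio, taken with a pseudocount of 10 CPM, were Cks2, Ier3, Acod1, Csrp3, Defb40, Fosl1, Ddit4, Gm12840, Sytl3 and Slc18a2. Cks2, a cyclin-dependent kinase subunit, was at 4367 CPM against 81.6 CPM, 53.5-fold (49.9 to 57.4), in 105 members. Csrp3, a muscle LIM protein, had 38 UMIs in 33 members at 171 CPM against 0.24 CPM, and 73.1% of its UMIs in the series were in basophils. Defb40, a beta-defensin, was at 202 CPM against 0.69 CPM, and Fosl1, an AP-1 subunit, at 261 CPM against 2.39 CPM. Sytl3, a synaptotagmin-like protein of vesicle docking, was at 544 CPM and slightly above that in NK cells at 597 CPM. Ddit4, a stress-induced mTOR inhibitor, was at 580.1 CPM against 32.6 CPM, and the early response gene Ier3 at 6305 CPM against 364 CPM.

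Across the 1261 features with at least 20 UMIs in the members, basophils held at least 50% of the series' UMIs for 12 and at least 10% for 32. After Prss34, Mcpt8, Cpa3, Fcer1a, Ms4a2, Cyp11a1, Csrp3 and Il4 these were Cd200r3 with 56.3%, Il13 with 54.8%, Defb40 with 52.9% and Gzmc with 52.2%. Of the 12, Mcpt8, Cpa3, Ms4a2 and Cyp11a1 are rule genes, whose shares are high by the selection. All of the shares are those of cells from enzymatically dissociated tumors and depend on how many cells of each type were recovered.

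**Figure D5:**
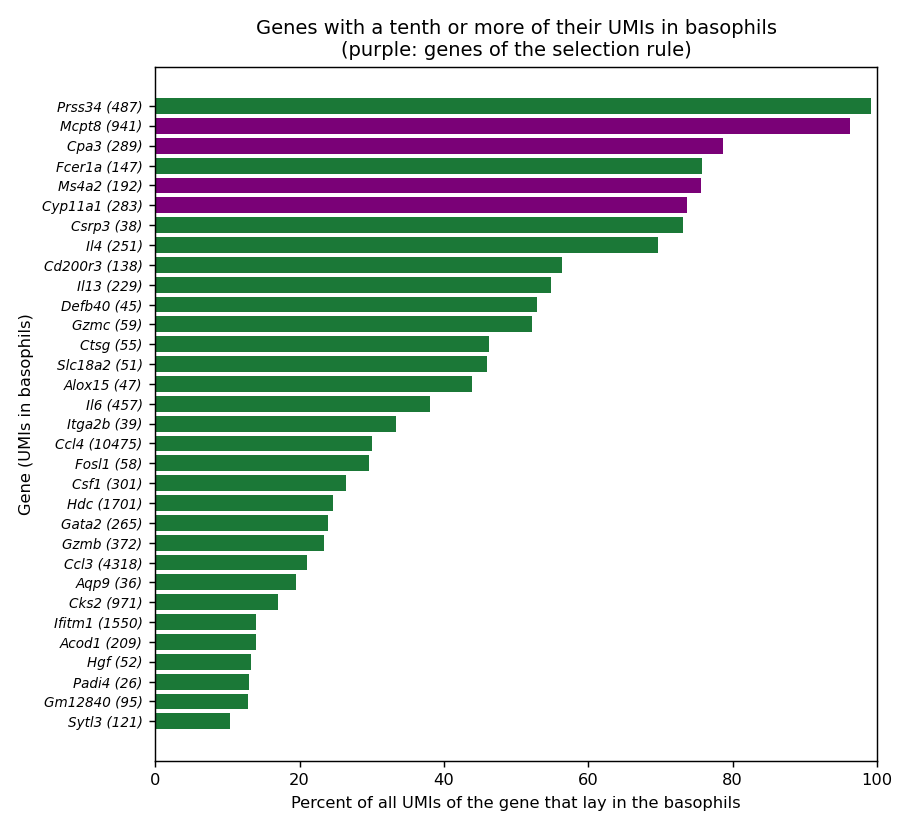
Percent of all UMIs of a gene in the series that fell in the 124 basophils, as bars for the 32 genes with at least 20 basophil UMIs and at least 10%, rule genes in purple. Prss34 had 99.2% and Mcpt8 96.2% of their UMIs in the basophils, and Il4 69.7% and Il13 54.8%, while the basophils held 0.383% of all UMIs.

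Several of these genes lie next to each other in the genome (GRCm38.p6). Il4 (chr11:53602982-53618669, minus strand) and Il13 (chr11:53631324-53634702, minus strand) were both high, while the flanking Kif3a was at 49.5 CPM, Rad50 at 22.5 CPM and Il5 at 0 UMIs. Ccl9, Ccl6, Ccl3 (chr11:83647844-83649355, minus strand) and Ccl4 (chr11:83662584-83664683, plus strand) share a chemokine cluster on the same chromosome in which Ccl5 had 0 UMIs. In the protease cluster of chromosome 14, Mcpt8 (chr14:56082166-56085273, minus strand) and its neighbours Ctsg, Gzmc and Gzmb were called higher. On the other side of Mcpt8, the mast cell proteases Mcpt1, Mcpt2 and Mcpt4 had 0 to 2 UMIs, and Cma1 (chr14:55941451-55944675, minus strand) had 9, all in 1 member, and was called higher.

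Basophil genes were also present just inside and just outside the rule. In all, 28 members had a rule sum of 3 to 5, and their basophil genes outside the rule summed to 25961 CPM, with Hdc at 6246 CPM, Ccl4 at 43449 CPM and Il4 at 187 CPM. Just outside, 8 cells with an Mcpt8 UMI and a sum below 3 had 19323 CPM, 2769.9 CPM, 20774 CPM and 0 UMIs for the same measures. A further 31 cells had a sum of at least 3 and no Mcpt8 UMI, and there the same genes were at 24246 CPM, Hdc at 4829 CPM, Ccl4 at 26883 CPM and Il4 at 609.9 CPM. These 31 cells held 84 mast cell UMIs, of which 83 were in 1 cell with 49 of Mcpt2, 26 of Mcpt1, 5 of Kit and 0 of Hdc.

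Cells at these edges count among the other cells above and raise their levels. Leaving out the 44 cells with a rule sum of at least 3 or an Mcpt8 UMI removed 46 of the 109 Il4 UMIs outside the members, and the ratio went from 599 to 1034 (782 to 1386). For Il13 the ratio went from 315 to 425, for Fcer1a from 813 to 2726 and for Cd200r3 from 335 to 587. For Cpa3 it went from 964 to 8337, but Cpa3 is a rule gene. Cells were left out partly for their Cpa3 UMIs, so this rise was set by the choice and carries no information. The ratios of Ccl3, Ccl4, Hdc and Il6 moved less, to 74.4, 124, 92.4 and 191.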

How the data were processed

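Cells from microdissected lung tumors of 4 mice were captured by droplet 3′ single-cell RNA sequencing. The authors aligned reads to mm10 with reporter sequences and made UMI counts per gene and cell with Cell Ranger 3.0.2. The deposited counts are not normalized: 31055 features in 20351 cells, 58624795 UMIs. Cells were not assigned to mice and barcodes were not analysed here, so the series was treated as 1 sample and no test was made. Cells with at least 200 genes and at most 13.4% mitochondrial UMIs were kept (19892). Members and gene lists were chosen with earlier results of these data known. Comparison classes were gated on marker UMIs, and 5954 cells fell in no gate and 1921 in more than 1. Doublets were kept in the reported values, and Scrublet was run as an alternative.

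Levels are pooled CPM. Intervals are exact at 95% (Poisson for levels, conditional binomial for ratios, Clopper-Pearson for shares). Genes with at least 10 UMIs over both sides were compared, the called fold was 4, and median log2 ratios used a pseudocount of 10 CPM. A count of 0 was read against 3 UMIs. Since reads come from 3′ ends, depth per gene is not scaled by length and levels were compared within genes. Cells were thinned to 1000 UMIs for shares, with at most 1000 cells drawn per comparison class. Genes named are those of the rule, the basophil and mast cell lists, up to 6 called-higher genes with the highest CPM per role list, a short list of single cytokines and chemokines whatever their level and the 10 genes outside the lists with the largest ratio. Further genes were added after their values were seen. Some items of the genotypes and gene lists are not reported here. Promoter windows came from RefSeq start sites of GRCm38.p6. Python 3.11.15, numpy 2.4.6, scipy 1.17.1, pandas 2.3.3, matplotlib 3.10.9 and scanpy 1.11.5 were used, and the comparison was tested on simulated data.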

Additional observations from a re-analysis of the deposited data

How the results depend on the processing

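Of 154 values under other settings, 140 stayed close to the reported value (inside its 95% interval, or for counts within 1.5 times) and 14 moved. With the C1q limit at 0 no value could change, as 0 members had a C1q UMI, and those values are counted among the 140. The basophil share was 0.407% with a rule sum of at least 5 and Mcpt8 of at least 2, and 0.779% without the Mcpt8 condition. Under these rules the mast cell genes were at 229 and 420.4 CPM, and they were at 98.7 CPM without the 12 members with most UMIs. The ratio of the basophil genes outside the rule was 13.03 with an upper limit on genes per cell, 11.9 without the Mcpt8 condition, 13.02 without members holding UMIs of another lineage and 13.9 without those 12 members. Il4 was at 1392 CPM under the stricter rule, and 52.2% of 23 cells had an Il4 UMI at 2000 UMIs per cell. A 2-fold limit called 710 genes higher against 376 at 4-fold, and 7 cytokine receptors and 7 Fc, lectin and inhibitory receptors against 3 and 4. With each class weighted equally 519 genes were called. Of the 376 genes, between 320 and all 376 were called again, depending on the setting. Leaving out edge cells, the deepest member or the 4 members with mast cell UMIs was added after the data were seen. Scrublet marked 188 cells (0.945%), 1 of them a member, and its rate was below the 6% it was given. No paired analysis was possible because the matrix carries no replicate, and leaving out a mouse was not possible for the same reason. Depth limits statements on rare transcripts: 0 UMIs allow up to 13.5 CPM.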

Other observations

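Early response genes were higher as a sum in the basophils, while single genes were mixed. The list reached 20138.5 CPM against 8717 CPM in other cells, 2.31-fold (2.24 to 2.38), and neutrophils were next at 15924 CPM. Its median log2 ratio was 1.13, against -0.23 over all genes compared. Of 13, 2 were called higher (Zfp36, an mRNA decay factor, at 2500.4 CPM against 491 CPM, and Egr1; 15.4%, against 2.33% of all genes) and 2 lower (Atf3 and Hspa1a; 15.4%, against 7.31%). Jun was at 1925 CPM against 651 CPM and Fos at 1174 CPM against 1713 CPM, neither of them called. The tissue was digested enzymatically for all cell types, and the part of digestion in these values was not tested. The histone gene H3f3b was at 10150 CPM against 1545 CPM, ranking 5 among the features by UMIs in basophils, and the inhibitor of NF-kappaB gene Nfkbia was at 5554 CPM against 616 CPM.

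Il1b, a main inflammatory cytokine, was at 1677 CPM in the basophils and 1410 CPM in other cells, 1.19-fold (1.07 to 1.32). Cxcl2, a neutrophil attractant, was at 1029.9 CPM against 2268 CPM and was unevenly spread, with 227 of its 229 UMIs in 16 members without Prss34. S100a8 and S100a9, the leading neutrophil genes, had 112 and 137 UMIs in 6 and 7 members.

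The tdTomato reporter that Cre switches on had 34 UMIs in 29 members, 153 CPM against 1134 CPM in other cells and 4988 CPM in epithelial cells, and whether free RNA accounts for them was not tested. GFP had 0 UMIs in the members. Stk11, which encodes LKB1, had 2 UMIs in the members, too few to describe.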
